A study of Mus musculus with 6 samples.

Results

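Intermediate filament genes were examined in MB21 cells, a line derived from mouse medulloblastoma, a tumour of the cerebellum. The 8 members were named by symbol and matched by Ensembl identifier among 55416 genes of the count table: the type III genes Vim, Prph and Gfap and the type IV genes Nes, Ina, Nefl, Nefm and Nefh. Each of the 8 had 1 matching row, and 5 of them (Nes, Ina, Vim, Prph and Gfap) passed the filter on low counts. All cells carried the ptch mutant genotype and grew without attachment in DMEM/F12 with B27. One group of 3 libraries came from cells given the vehicle DMSO, and the other group of 3 from cells given DS-1-38 (DS38), a derivative of benzarone, at 10 uM. The sample labels give 1 day of treatment, whereas the design text of the series gives 5 days; the labels were followed. All libraries came from a single cell line, and the labels do not say whether replicates were separate cultures, so p-values reflect only how much these libraries varied, possibly for technical reasons.

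Intermediate filaments are rope-like polymers that give a cell its mechanical resilience, and which filament protein a neural cell makes changes as it matures. Neural progenitors make nestin together with vimentin, young neurons replace these with alpha-internexin, and neurons with long axons add the neurofilament triplet encoded by Nefl, Nefm and Nefh. Peripherin belongs mainly to peripheral and some central neurons with long projections, and glial fibrillary acidic protein (GFAP) to astrocytes. Granule neuron progenitors, the cells from which hedgehog-driven medulloblastoma arises, are cerebellar precursors in which nestin marks immature states.

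The members were chosen with the DS38 and DMSO values of these libraries already known. Their differences between the groups are therefore given as a description, with no test. Levels are library-size-scaled counts (CPM), with TMM scaling to correct for library composition. Between genes, levels are compared only per length, as CPM per kilobase of the deposited gene length (RPKM). Differences are log2 fold changes, positive where DS38 was higher, with standard errors (SE) from edgeR.

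RefSeq promoter entries (build GRCm38.p6) were found for 5 of the 8 members, and those of the pair most reduced and of the pair most increased are shown because these genes moved in opposite directions. Each run holds the 250 bases before the listed start, read 5′ to 3′ along the gene. Capitals mark matches to TATAAA, the TATA box, and to GGGCGG, a GC box, on either strand. The Nes run lies at chr3:87970843-87971092 (plus strand), the Ina run at chr19:47014431-47014680 (plus strand), the Prph run at chr15:99054924-99055173 (plus strand) and the Gfap run at chr11:102897201-102897450 (minus strand).
Nes: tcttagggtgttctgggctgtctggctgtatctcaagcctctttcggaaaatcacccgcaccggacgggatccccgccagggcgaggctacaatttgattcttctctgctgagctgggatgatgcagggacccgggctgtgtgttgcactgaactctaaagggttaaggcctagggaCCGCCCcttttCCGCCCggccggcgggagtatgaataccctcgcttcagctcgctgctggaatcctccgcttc
Ina: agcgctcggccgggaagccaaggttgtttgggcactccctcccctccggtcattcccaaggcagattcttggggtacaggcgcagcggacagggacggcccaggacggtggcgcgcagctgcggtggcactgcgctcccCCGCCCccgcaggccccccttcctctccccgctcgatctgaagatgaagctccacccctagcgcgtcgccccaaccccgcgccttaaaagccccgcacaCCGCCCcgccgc
Prph: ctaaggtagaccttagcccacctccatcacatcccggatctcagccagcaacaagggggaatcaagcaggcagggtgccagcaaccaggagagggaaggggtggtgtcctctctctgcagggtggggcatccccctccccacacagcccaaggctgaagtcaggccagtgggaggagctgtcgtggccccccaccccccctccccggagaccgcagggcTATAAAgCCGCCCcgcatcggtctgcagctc
Gfap: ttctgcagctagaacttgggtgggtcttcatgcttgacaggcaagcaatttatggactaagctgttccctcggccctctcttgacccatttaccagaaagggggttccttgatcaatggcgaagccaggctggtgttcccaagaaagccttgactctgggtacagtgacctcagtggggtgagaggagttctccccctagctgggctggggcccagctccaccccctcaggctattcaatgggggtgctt
The Prph run held a TATAAA match at position -31, counted back from the start, and a GC box match at position -24. The Nes run held 2 GC box matches, at positions -73 and -62, and the Ina run held 2, at positions -111 and -12. The Gfap run held neither motif. The run of Vim, a gene lower in DS38 whose sequence is not printed, held TATAAA at position -32 and no GC box match. Each of these motifs was thus found before genes that were lower and before a gene that was higher. Of 32817 promoter runs of this length, 12.4% held TATAAA and 32.7% held GGGCGG on either strand. The E-box CANNTG (66.2% of all runs) matched once in the Ina run, at position -135. TGATGNAA, a core of the element bound by ATF4 (3.45% of runs), the cyclic AMP element TGACGTCA (1.55%) and the octamer ATGCAAAT bound by POU factors (1.6%) had no match in these 4 runs. No matches of different motifs overlapped in them. A match describes letters in the window and is not evidence of binding.

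Nestin was the most abundant member per length and had the largest decrease among the members. Nes stood at 835.7, 794.4 and 780.3 CPM in DMSO replicates 1 to 3, and at 533.7, 540.7 and 499.5 CPM in DS38 replicates 1 to 3. Every DS38 library was below every DMSO library, by a wider gap than the spread within either group. The means were 803.5 ± 28.8 CPM in DMSO and 524.6 ± 22.1 CPM in DS38 (SD, n = 3), and the log2 fold change was -0.62 ± 0.033 (SE). The values rest on 30180 to 42571 reads per library. Per length, Nes ranked 244 among 17679 tested genes in DMSO, and of the 243 genes above it 1 had a lower log2 fold change, ENSMUSG00000119584, which was named after its value was seen (-1.04 ± 0.19, SE). Among all 17679 tested genes at any level, 617 had a lower log2 fold change than Nes.

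Alpha-internexin, the type IV protein of young and small-calibre axons, was also lower. Ina stood at 80.4, 78.8 and 80.1 CPM in DMSO replicates 1 to 3 and at 64.0, 65.7 and 64.3 CPM in DS38 replicates 1 to 3. The groups did not overlap, and replicates of each group lay within 2 CPM of one another. The log2 fold change was -0.30 ± 0.032 (SE). In the GENCODE M21 annotation, exons of Ina overlap those of Nt5c2, a nucleotidase gene, on the opposite strand. Nt5c2 held 32451 reads against 25421 for Ina, and had a log2 fold change of -0.11 ± 0.031 (SE). The strand setting of the counting is not given in the sources used here, so reads of the shared stretch cannot be told apart.

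Vimentin, the type III partner with which nestin forms mixed filaments, differed by far less than nestin. Vim stood at 162.8, 158.5 and 166.2 CPM in DMSO replicates 1 to 3 and at 156.9, 149.1 and 146.7 CPM in DS38 replicates 1 to 3. The groups did not overlap, but the lowest DMSO library and the highest DS38 library were closer to each other than libraries within a group. The log2 fold change was -0.11 ± 0.032 (SE). Among the 1471 tested genes more abundant than Vim per length in DMSO, 300 had a lower log2 fold change.

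Peripherin had the largest increase among the members. Prph stood at 3.46, 3.68 and 3.70 CPM in DMSO replicates 1 to 3 and at 7.07, 7.09 and 6.60 CPM in DS38 replicates 1 to 3. Every DS38 library was well above every DMSO library. The mean went from 3.61 ± 0.133 to 6.92 ± 0.280 CPM (SD, n = 3), and the log2 fold change was 0.94 ± 0.091 (SE). Counts were low, at 143 to 177 reads per DMSO library and 435 to 564 per DS38 library. Of the 10868 tested genes more abundant than Prph per length in DMSO, 2 had a higher log2 fold change: Calb2 (1.49 ± 0.077, SE), which encodes calretinin, and Trib3 (0.95 ± 0.083), a pseudokinase gene, both named after their values were seen. Among all 17679 tested genes at any level, 138 had a higher log2 fold change than Prph.

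GFAP, the filament protein of astrocytes, was higher by a smaller step. Gfap stood at 4.09, 4.33 and 4.58 CPM in DMSO replicates 1 to 3 and at 5.13, 5.77 and 5.31 CPM in DS38 replicates 1 to 3. The groups did not overlap. The log2 fold change was 0.32 ± 0.096 (SE), the widest error of the 5 members that passed the filter. Several defining markers of astrocytes were near 0 over all 6 libraries. Aqp4 (the water channel of astrocyte endfeet) had 3 counts, Gja1 (connexin 43) 3, Aldh1l1 8 and Gjb6 (connexin 30) 0. Of these, Aqp4, Gja1 and Aldh1l1 were named after their values were seen. Other markers of the list had more, with 245 counts for S100b, 341 for Aldoc, 440 for Fgfr3 and 43592 for Sox9. The glutamate transporter genes Slc1a2 and Slc1a3 were abundant. Slc1a2 was lower in DS38, at a log2 fold change of -0.31 ± 0.030 (SE), and Slc1a3 was at -0.05 ± 0.031.

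The neurofilament triplet was almost unread. No read of Nefl was counted (0 in each of the 6 libraries), a result that a level of up to 0.00831 CPM could give (3 counts of the summed total; counting error only). Nefm had 1 count in DMSO replicate 1, 1 in DS38 replicate 1 and 0 in the others. Nefh, the heavy subunit, had 2, 10 and 6 counts across the DMSO replicates and 12, 6 and 13 across the DS38 replicates. On the CPM scale its groups overlapped, at 0.0409 to 0.208 CPM in DMSO and 0.0979 to 0.153 CPM in DS38, and any difference was not detectable at this depth. Nefl and Nefm are neighbours whose exons overlap on opposite strands in GENCODE M21. Whether reads of these genes were left out during counting is not given in the sources used here.

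**Figure D1:**
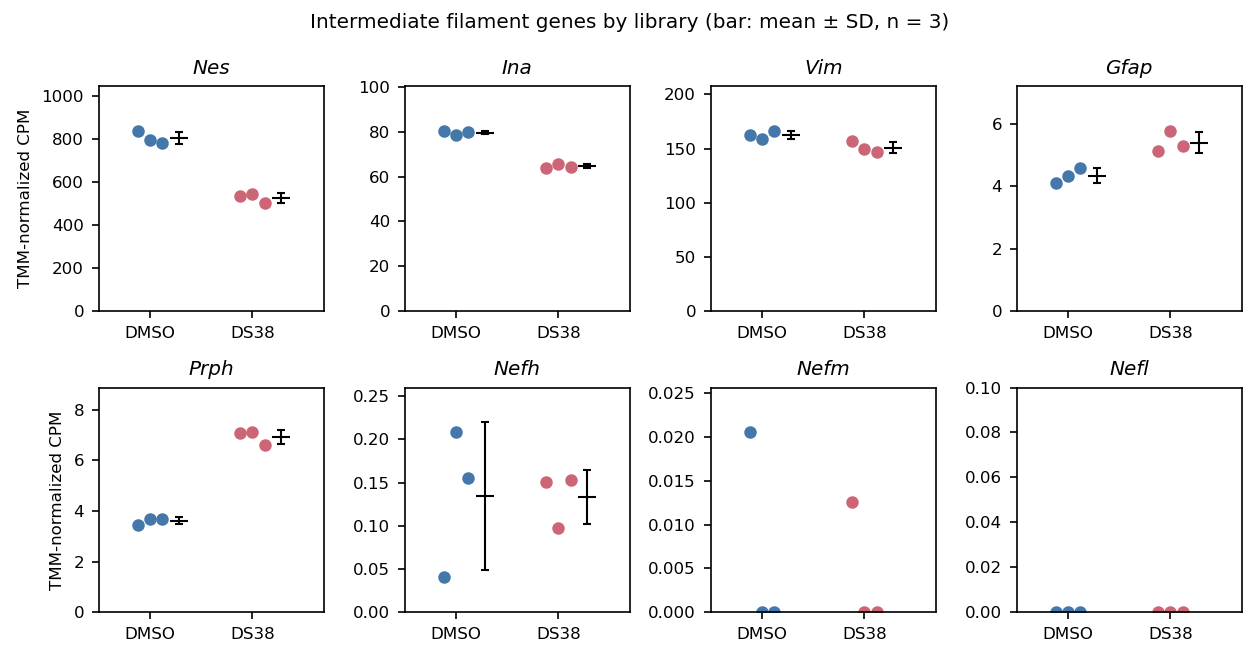
TMM-normalized CPM (vertical axes, each from 0) of the 8 members in the 3 DMSO and 3 DS38 libraries; points are libraries, and black bars are means ± SD (left out for Nefm and Nefl, with 2 and 0 counts in all). The DS38 points lie below all DMSO points for Nes, Ina and Vim and above them for Gfap and Prph, while Nefh overlaps.

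Non-overlapping groups were thus found for all 5 members that passed the filter, 3 lower and 2 higher in DS38. Among all tested genes the groups did not overlap in 38.6% (20.7% higher and 17.9% lower), and edgeR called 24.5% at an adjusted p under 0.05. Nothing is read from the members' count, since the members were chosen on this contrast. In bulk RNA, fewer cells making a transcript and less of it per cell cannot be told apart.

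Ordered by level per length in DMSO, Nes led at 125.2 ± 4.48 RPKM (SD, n = 3), followed by Vim at 34.3 ± 0.814, Ina at 24.6 ± 0.269, Prph at 1.81 ± 0.0665 and Gfap at 1.03 ± 0.0572 RPKM. Nefh followed at 0.0337 ± 0.0214 RPKM, and Nefm and Nefl were at or next to 0. Neighbours in this order down to Nefh did not overlap across the DMSO libraries. In DS38 the order was unchanged, with Nes at 81.8 ± 3.44, Vim at 31.8 ± 1.12, Ina at 19.9 ± 0.279, Prph at 3.46 ± 0.140 and Gfap at 1.28 ± 0.0790 RPKM. The summed level of the 8 genes was 184.3 to 192.1 RPKM in DMSO and 133.2 to 140.9 RPKM in DS38. Nes made up 66.0% to 67.8% of that sum in DMSO and 58.4% to 59.8% in DS38. The share of Vim was 17.9% to 19.0% in DMSO and 22.3% to 23.5% in DS38, although its own level was slightly lower. Prph went from 0.901% to 1.00% of the sum in DMSO to 2.48% to 2.52% in DS38, and so remained a minor part of it.

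**Figure D2:**
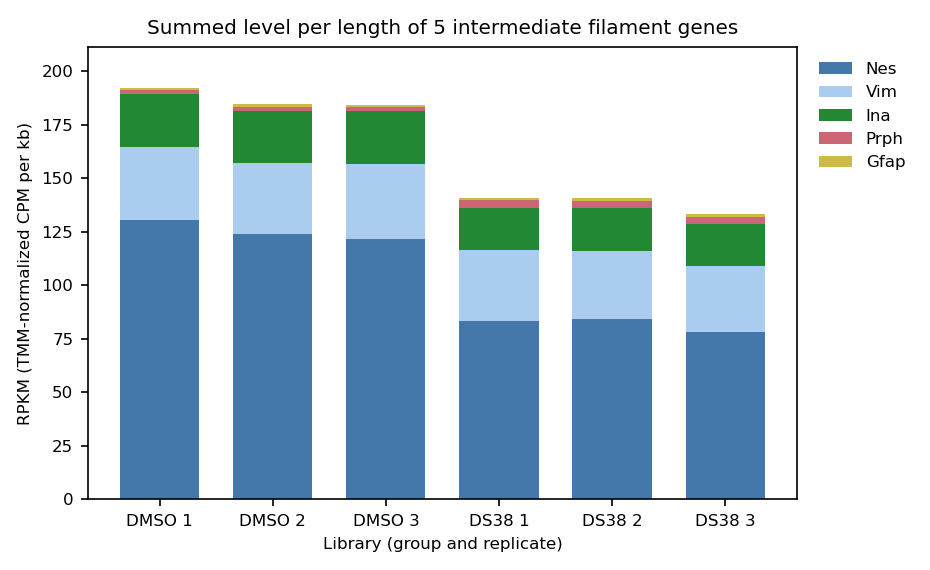
Level per length (RPKM, vertical axis from 0) of Nes, Vim, Ina, Prph and Gfap, stacked for each library on the horizontal axis. The stacks reach 184.3 to 192.1 RPKM in DMSO and 133.2 to 140.9 RPKM in DS38, and most of the step is in the Nes segment.

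The genes whose pattern over the 6 libraries was most like that of Nes were found by the root mean square (RMS) difference of centred log2 CPM, among 9981 tested genes of at least 5 CPM. Among the closest were Klhl29 (RMS difference 0.0444), Tex14 (0.0693) and Kcna2, a potassium channel gene (0.0696). Kcna2 went from 266.6 ± 9.38 to 190.3 ± 4.58 CPM (SD, n = 3). For Prph the closest included Atf5, a transcription factor of the integrated stress response (0.0650), Cyb5r1 (0.0679) and Cabp1, a calcium-binding protein gene (0.0686). Atf5 went from 48.9 ± 4.19 to 92.9 ± 0.663 CPM. This likeness follows mainly the step between the groups and is a description over 6 libraries.

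Genes that work with intermediate filaments were then tested in the edgeR quasi-likelihood fit over 17679 genes, with Benjamini-Hochberg adjustment over all of them. In that fit 12.9% of genes rose and 11.7% fell, with a median log2 fold change of 0.004. These were 2272 rises and 2068 falls; with library size alone for scaling there were 3289 rises and 1543 falls. Lists are described by their counts and medians beside these values.

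Of 19 other filament genes, 8 were tested, and 1 rose and 1 fell, with a median log2 fold change of -0.05. Lmna, which encodes the A-type lamins of the nuclear envelope, rose from 12.6 ± 0.935 to 14.8 ± 0.801 CPM (SD, n = 3), with an edgeR adjusted p of 0.00935. That call was lost without DMSO replicate 1 (edgeR adjusted p = 0.0747) or DS38 replicate 2 (0.0614). Lmnb1, a B-type lamin, had a log2 fold change of -0.08 ± 0.028 (SE), with an edgeR adjusted p of 0.0432, and lost its call in 9 of 16 alternatives, including each omission of 1 library other than DMSO replicate 3 (edgeR adjusted p = 0.0697 to 0.149). Among the cytoplasmic filament genes, Synm (synemin, a partner of vimentin and nestin) did not pass, at 1.98 ± 0.239 CPM in DMSO and 1.88 ± 0.217 in DS38. Krt5, Krt18 and Krt19, keratins of epithelia, had 0 counts.

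Dst and Macf1, giant plakins that tie parts of the cytoskeleton together, fell. Dst (dystonin, which links filaments to actin and microtubules) fell from 540.9 ± 61.2 to 341.0 ± 9.41 CPM (SD, n = 3), and its log2 fold change was -0.67 ± 0.050 (SE), with an edgeR adjusted p of 5.464e-09. Macf1, its relative that crosslinks microtubules and actin, fell by 0.44 ± 0.050 on the log2 scale (edgeR adjusted p = 1.275e-06). Both are very long transcripts, and DMSO replicate 3 lay between the other DMSO libraries and DS38: Dst was at 591.1, 558.8 and 472.7 CPM in DMSO replicates 1 to 3 and at 339.5, 332.4 and 351.0 in DS38 replicates 1 to 3. With a correction for gene length the log2 fold changes were -0.40 for Dst and -0.22 for Macf1, and both stayed called. Plec, which encodes plectin, the plakin best known for binding vimentin, did not pass (30.2 to 34.8 CPM over all 6 libraries; edgeR adjusted p = 0.355). Dtna, a dystrobrevin of the dystrophin complex, rose from 14.8 ± 0.804 to 18.6 ± 1.15 CPM (edgeR adjusted p = 3.064e-04). In all, 1 rose and 2 fell of 8 tested linkers, with a median of 0.004; 10 were listed and Eppk1 had no match.

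Kinases and phosphatases that act on filament proteins moved in both directions, with 4 rises and 4 falls among 23 tested and a median of -0.02. Camk2b, a subunit of a kinase that phosphorylates vimentin and other filament proteins, rose from 14.8 ± 0.497 to 20.3 ± 0.0830 CPM (SD, n = 3), with an edgeR adjusted p of 1.872e-06. Mapk3 (ERK1), Prkacb (a catalytic subunit of protein kinase A) and Cdk5, a neuronal kinase of nestin and neurofilaments, rose by 0.21 ± 0.039, 0.15 ± 0.030 and 0.21 ± 0.056 on the log2 scale (SE). Cdk1, the mitotic kinase that triggers disassembly of vimentin and nestin filaments, fell by 0.11 ± 0.028, and Gsk3b, Rock1 and Rock2 fell by 0.14 ± 0.034, 0.15 ± 0.034 and 0.10 ± 0.034. The calls of Cdk1 and Cdk5 were lost without DS38 replicate 2 (edgeR adjusted p = 0.0799 and 0.0538). Those of Rock1 and Rock2, also long transcripts, were lost with the length correction (edgeR adjusted p = 0.450 and 0.529). The call of Rock2 was also lost without DMSO replicate 1 (edgeR adjusted p = 0.158) or 2 (0.0792) and without DS38 replicate 1 (0.150) or 2 (0.127), and Gsk3b was at -0.09 without DMSO replicate 1. With library size alone for scaling, Cdk1 and Rock2 were not called (edgeR adjusted p = 0.0650 and 0.137), and with the replicate block Rock2 was not called (0.0552).

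Among motors, proteases, ubiquitin ligases and small heat shock proteins that move or remove filaments, 4 rose and 5 fell of 19 tested, with a median of 0.03. Cryab, a small heat shock protein that binds filaments of the vimentin and GFAP type, rose from 1.98 ± 0.279 to 3.26 ± 0.319 CPM (SD, n = 3), with an edgeR adjusted p of 4.521e-04. Capn1, a calcium-activated protease that cuts filament proteins, rose by 0.24 ± 0.042 on the log2 scale, and Trim32 and the kinesin light chain gene Klc2 by 0.13 ± 0.031 and 0.17 ± 0.044 (SE). Trim2, a ligase of the light neurofilament, fell by 0.18 ± 0.034, and the motors Myo5a and Dync1h1 fell by 0.32 ± 0.037 and 0.26 ± 0.046. The call of Trim2 was lost with the length correction (edgeR adjusted p = 0.246), that of Dync1h1 with robust dispersion (0.0742) and that of Klc2 without DS38 replicate 1 (0.0531). With the length correction Dync1h1 and Trim32 were at -0.17 and 0.09.

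Of the transcription factors described as acting on promoters or enhancers of the members, 8 fell and 0 rose in edgeR among 19 tested, with a median of -0.06. At an unadjusted p under 0.05, 1 was higher, and DESeq2 and limma-voom each called 0 higher and 8 lower. Pou3f2 (BRN2) and the SOXB1 factor Sox1 belong to the families that bind the neural enhancer of Nes. Pou3f2 fell from 126.5 ± 4.65 to 108.0 ± 4.13 CPM (SD, n = 3), with an edgeR adjusted p of 4.105e-05. Sox1 fell by 0.17 ± 0.029 on the log2 scale (SE), with an edgeR adjusted p of 1.341e-04. The nuclear factor I genes Nfib and Nfia, whose products act on the GFAP promoter in glial cells, fell by 0.27 ± 0.034 and 0.18 ± 0.033. Over the 16 alternatives Nfib ranged from -0.31 to -0.18 and Nfia from -0.21 to -0.14, and both kept their calls. Whether any of these factors acts on the members in these cells was not tested. Without DMSO replicate 1, 2 of the list rose.

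Neuronal microtubule genes, the other main cytoskeletal system of growing axons, mostly fell: 14 fell and 1 rose of 20 tested, with a median of -0.19. Among the falls, Dclk1 and Dcx (doublecortin), which stabilise microtubules in migrating neurons, fell by 0.38 ± 0.033 and 0.26 ± 0.032 on the log2 scale (SE). Gap43, a protein of growth cones, fell from 194.1 ± 1.43 to 165.5 ± 3.81 CPM (SD, n = 3), with an edgeR adjusted p of 3.961e-06, and Map1b fell by 0.33 ± 0.046. Over the 16 alternatives the log2 fold change ranged from -0.41 to -0.29 for Dclk1 and from -0.29 to -0.20 for Dcx. For Map1b it ranged from -0.40 to -0.23, and each of these genes kept its call. The single rise was Mapt, which encodes the axonal protein tau, from 17.6 ± 0.253 to 27.9 ± 1.18 CPM (edgeR adjusted p = 5.135e-09).

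**Figure D3:**
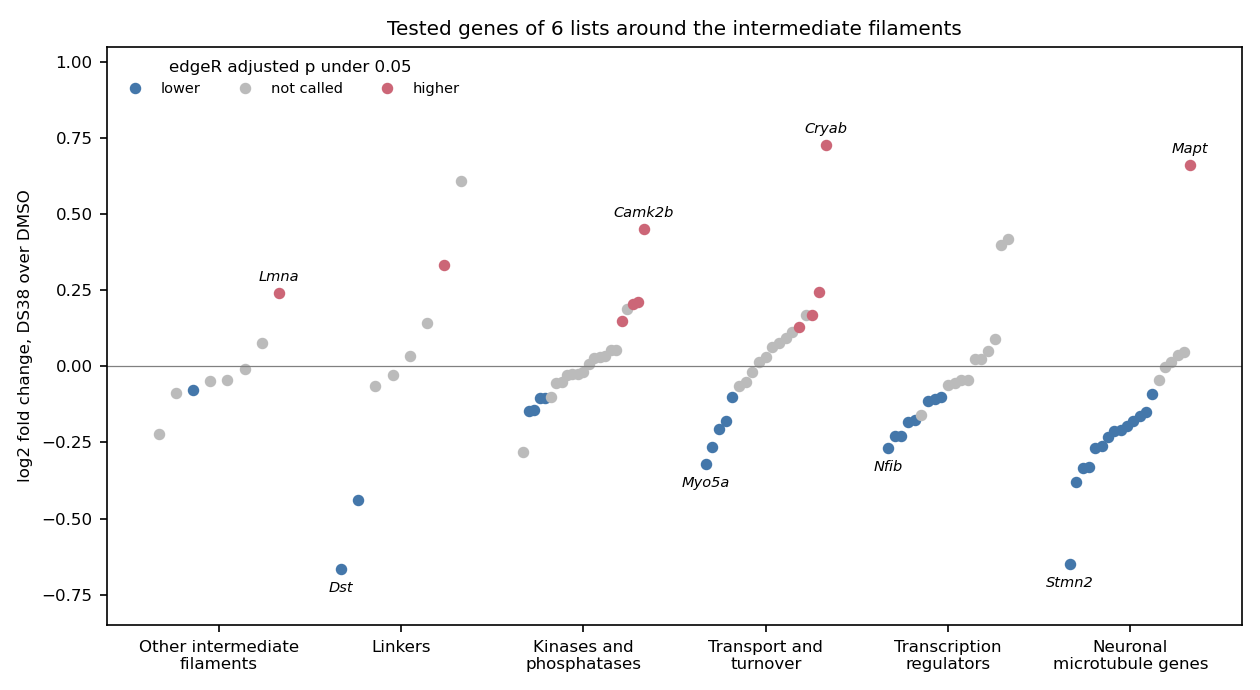
Log2 fold change of DS38 over DMSO (vertical axis) for each tested gene of 6 lists (horizontal axis, ordered by value within a list); blue and red points are genes called lower and higher by edgeR, and grey points are not called. The microtubule list holds 14 blue points and 1 red point, and the regulators 8 blue points and 0 red points.

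Markers of the cell types the culture could hold were read beside these results. Granule progenitor markers were abundant, with the 11 genes summing to 2999 to 3094 CPM in DMSO and 3063 to 3080 in DS38; Atoh1 and Ccnd1 were the most abundant of them per length in DMSO (154.0 and 146.4 RPKM), and 4 rose and 5 fell. The 12 granule neuron markers summed to 556.8 to 594.2 and 528.0 to 536.0 CPM, led per length by Neurod1 and then by Rbfox3 and Cntn2, which were nearly level (16.8 and 16.7 RPKM in DMSO), with Gabra6, a receptor subunit of mature granule neurons, at 0. The 9 neural stem cell markers summed to 602.8 to 628.2 and 599.2 to 606.0 CPM, led per length by Sox9 and Msi1. The 10 astrocyte markers summed to 575.4 to 601.5 and 503.2 to 511.5 CPM, nearly all from Slc1a2, Slc1a3 and Sox9, of which the last pair is also in the stem cell list. The 8 oligodendrocyte markers summed to 24.4 to 25.2 and 26.8 to 29.8 CPM, led by Olig1, with Mag at 0. The 9 fibroblast markers summed to 99.8 to 100.6 and 97.9 to 104.0 CPM, mostly Pdgfra and Fn1, and 6 of them were under 1 CPM. In edgeR, 2 rose and 3 fell of 8 tested granule neuron markers, and 1 rose and 2 fell of 9 stem cell markers. Of 6 tested astrocyte markers 0 rose and 2 fell, Slc1a2 and Sox9. Of 6 tested oligodendrocyte markers 1 rose and 0 fell, and of 5 tested fibroblast markers 1 rose and 0 fell.

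The 7 endothelial markers, led by Pecam1 and Tek, summed to 0.982 to 1.33 CPM in DMSO and 1.08 to 1.20 in DS38, with Kdr, Cldn5 and Tie1 at 0. The 8 microglial markers, led by Tmem119 and Aif1, summed to 0.270 to 0.646 and 0.359 to 0.426 CPM, with C1qa and Itgam at 0. Of 10 markers of peripheral sensory neurons, the cells best known for peripherin, Pou4f1 and Isl1 led per length in DMSO. In DS38 Pou4f1 still led, with P2rx3 above Isl1 (1.99 and 1.32 RPKM). The sum of the 10 markers was 135.0 to 135.8 CPM in DMSO and 125.4 to 133.0 in DS38. Of the 5 that were tested, 2 rose and 1 fell, and of these P2rx3 and Calca are named after their values were seen. Pou4f1, which made up most of the sum, fell from 126.9 to 117.8 CPM (edgeR adjusted p = 0.0111). That call was lost with library size alone (edgeR adjusted p = 0.0790) and without DS38 replicate 1 (0.105). P2rx3, an ATP-gated channel, rose from 2.02 ± 0.229 to 5.56 ± 0.494 CPM (SD, n = 3), with an edgeR adjusted p of 1.725e-08. Calca, with 88 counts over all 6 libraries, rose by 1.31 ± 0.43 on the log2 scale (SE), with an edgeR adjusted p of 0.0289. Calca had an adjusted p in 13 of the 16 alternatives. Among these its call was lost in 4, without DMSO replicate 1 or 2 or DS38 replicate 1 or 2 (edgeR adjusted p = 0.0842 to 0.144). DESeq2 called 1 marker of this list higher, against 2 in edgeR, but it gave Calca no adjusted p. P2rx3 kept its call in all 16 alternatives. In all, 7 of the 10 markers were under 1 CPM in both groups, among them Avil with 162 counts over all 6 libraries, Scn10a with 1, Trpv1 with 1 and Tac1 with 0.

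The log2 fold changes of the 5 members were recomputed under 16 alternatives, and none changed sign. Because the groups of these members did not overlap, leaving out any library could hardly change a sign. The ranges therefore describe the size of the differences. Nes ranged from -0.64 to -0.58, Ina from -0.35 to -0.27, Vim from -0.14 to -0.07, Gfap from 0.27 to 0.36 and Prph from 0.90 to 0.97. Depth differed without overlap, with DS38 libraries the deeper ones, at 60434089 to 84044428 against 38840296 to 50014681 counts. After thinning all libraries to 38840296 counts, Nes was at -0.61 and Prph at 0.95.

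**Figure D4:**
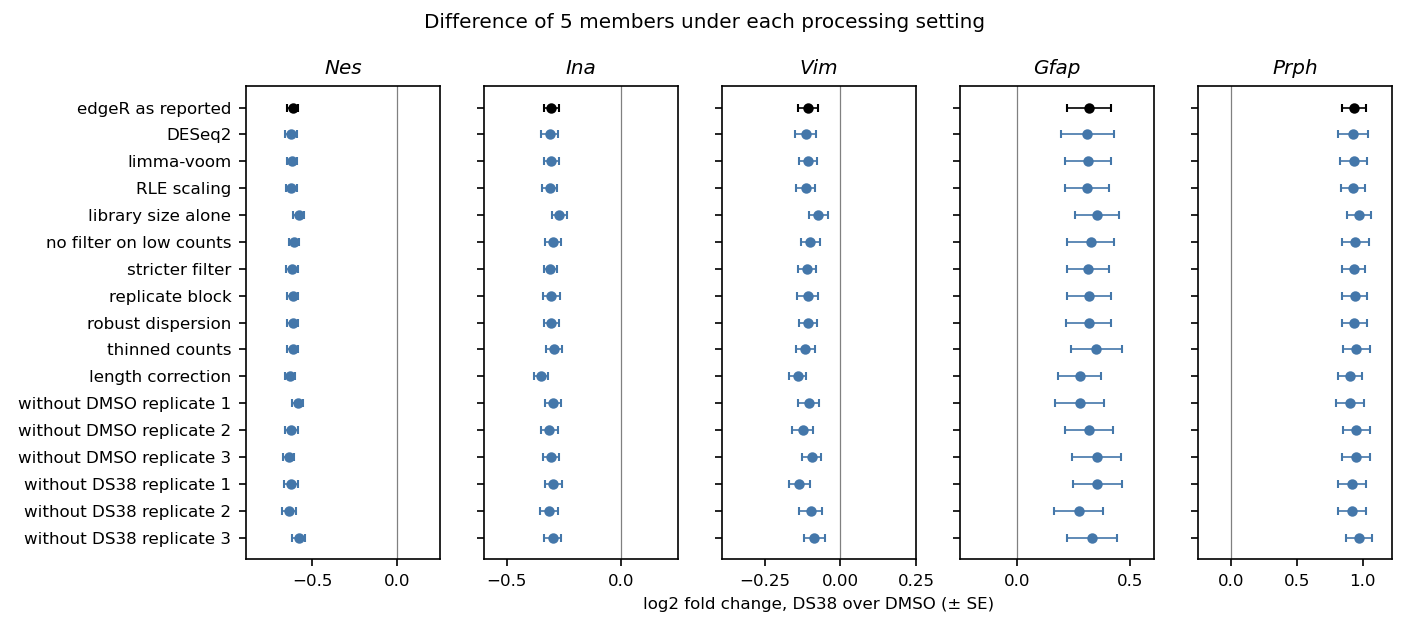
Log2 fold change of DS38 over DMSO with SE (horizontal axes, one panel for each of 5 members) under edgeR as reported, in black, and under 16 alternatives, in blue, listed on the vertical axis. Nes, Ina and Vim stay below 0 and Gfap and Prph above 0 in all of them.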

How the data were processed

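RNA sequencing was read in 6 libraries (3 DMSO, 3 DS38). The authors deposited whole-number read counts per Ensembl gene and each gene's length. The submitters' processing notes name the builds GRCm39 and GRCh38.p13, edgeR, R 4.1.0, Subread 2.0.3, featureCounts and STAR 2.7.9a, without roles; strand setting and handling of shared reads are likewise not given in the sources used. Libraries came from an mRNA kit, per the labels' protocols.

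Symbols matched 52083 of 55416 identifiers; the rest held 0.345% of counts. In R 4.3.3, edgeR 4.0.16 kept 17679 genes (filterByExpr, minimum count 10, minimum total 15), scaled by TMM and tested DS38 against DMSO by quasi-likelihood (two-sided, no other term) with Benjamini-Hochberg adjustment and a threshold of 0.05. The tests were tested on simulated data first. DESeq2 1.42.0, limma 3.58.1 (voom) and other scalings, filters and library subsets were alternatives. Replicates differed by more than sampling noise, so none was merged. Chi-square over degrees of freedom was 2.91 to 3.56 between DS38 libraries and 8.57 to 9.61 between DMSO libraries. Against the DS38 libraries, DMSO replicate 3, the shallowest library, was at 10.7 to 12.9, and DMSO replicates 1 and 2 were at 24.2 to 28.9. Without DMSO replicate 3, 2437 genes rose and 2474 fell. Named genes were all members and, per list, the 4 called genes of smallest p in each direction. Of each cell type they were the 2 markers of highest mean CPM and those at 0. In the granule progenitor, granule neuron and stem cell lists, markers leading per length are named instead. Members and lists were chosen with earlier results of these data known. A few genes that these rules name are not reported here.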

Additional observations from a re-analysis of the deposited data

How the results depend on the processing

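The 16 alternatives left the direction of all 5 measured members as reported, which their non-overlapping groups made likely in advance. Ina alone moved by more than its replicate spread. It was at -0.27 on the log2 scale with only library size for scaling and at -0.35 after the length correction. The spread of Ina was the smallest of the 5 (pooled SD of log2 CPM 0.0181, against 0.0432 to 0.0843 for the others). Library size alone raised the values of all 5 by nearly the same amount, so Ina did not depend more on that scaling. With library size alone, which moved the median of all genes from 0.004 to 0.04, 3289 genes rose and 1543 fell, against 2272 and 2068 as reported. Under that scaling 7 transport and turnover genes and 2 regulators rose, and 2 kinases or phosphatases and 0 other filament genes fell. Among the other filament genes, 0 fell without a filter, with the replicate block or after thinning, and 3 fell with the length correction. With no filter, thinning or the length correction, 1 regulator rose. Leaving out each library in turn, 0 to 1 other filament genes rose and 0 to 1 fell, 0 to 2 regulators rose, and 2 to 6 kinases or phosphatases fell, 2 of them without DS38 replicate 2.

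Same-numbered replicates did not deviate together (r = 0.035, -0.011 and -0.027 over genes for numbers 1 to 3), and not every library correlated best with its own number. With the replicate block 2108 genes rose and 1902 fell, Nes was at -0.62 and Prph at 0.94. Few counts limit what can be said of Nefl, Nefm and Nefh. For Nefl and Nefm, the handling of reads from their overlapping exons is also not given.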
